A study of Mus musculus with 10 samples.

Results

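The cyclin-dependent kinase inhibitor genes were examined for the repressive histone mark H3K27me3 in fetal liver LT-HSCs, the long-term hematopoietic stem cells that renew the whole blood system. The 7 genes were taken as a family, Cdkn1a, Cdkn1b and Cdkn1c (Cip/Kip) and Cdkn2a, Cdkn2b, Cdkn2c and Cdkn2d (INK4), out of 55450 annotated genes, and each was followed whether or not it carried a peak. The mark had been profiled by CUT&Tag, in which an antibody directs the transposase Tn5 to the modified nucleosomes so that sequenced fragments pile up where the mark lies. LT-HSCs were sorted as LSK CD48-CD150+ cells from mouse embryos at E14.5, 3 libraries from wild-type embryos (WT) and 3 from embryos of a targeted knockout line of Nfkbia, which encodes IκBα, an inhibitor of NF-κB (KO). No group was treated. The deletion is present in all cells of the KO embryo and is not limited to the blood lineage, and the number of embryos behind each library is not given in the sources used here. Another 4 of the 10 samples of the series, CUT&Tag for IκBα itself, were not analysed here. Replicates 1 and 2 of both genotypes had 75 bp reads and replicate 3 of both had 50 bp reads.

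Cyclin-dependent kinases drive cells from G1 into S phase, and the inhibitors hold them back. INK4 proteins bind the D-cyclin kinases Cdk4 and Cdk6, whereas Cip/Kip proteins bind a broader range of cyclin and kinase complexes. In stem cells of the blood the family is known for its part in quiescence and senescence, and the neighbouring genes Cdkn2a and Cdkn2b are textbook targets of the Polycomb complexes, of which PRC2 places the H3K27me3 mark.

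A gene was called in a library when a peak overlapped its window, that is the gene body plus the promoter, which reached from 5 kb before to 100 bp past every start site of the gene (GRCm38, GENCODE M21). The libraries held between 1047 and 6013 peaks. WT replicate 3 stood apart, with 1047 peaks covering 1.9 Mb and a smallest total signal of 3344, against at least 2325 peaks, 7.61 Mb and 6616 in each of the other 5, and differences between genotypes that turned without it are given both ways. The deposited values are unscaled. Total signal is fragment coverage summed over a peak and maximum signal is its highest coverage, with library medians of only 6 to 10 fragments, so single peaks are known with limited precision. Where 3 values are given for a genotype, they follow the order of replicates 1, 2 and 3. Peaks are the top 0.5% of blocks of each library, so a gene without a peak was below that library's limit and cannot be called free of the mark. The targeted gene Nfkbia had no peak in any library, which leaves the genotype labels unchecked by these files. Of the marker lists, 0 of 7 LT-HSC genes were called in any library, as were 0 of 3 myeloid, 0 of 2 annotated erythroid and 0 of 2 hepatocyte genes. Among lymphoid and endothelial markers, Pax5 was called in all 6 libraries, Cd3e in 1 KO library and Kdr in 2 WT libraries. Of 39 Hox genes, known Polycomb targets, 32 were called in at least 1 library, and the active genes Actb, Gapdh and Eef1a1 were not called in any.

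Promoter sequences of 4 of the genes are shown, because start sites of one gene, or of genes of one family, differed in how many libraries placed them under a peak. They are reference sequence (RefSeq, GRCm38.p6), 5′ to 3′ on the strand of the gene, end just before the first annotated exon base, and carry CpG dinucleotides in capitals. The first 2 belong to Cdkn2a, whose start sites give the unrelated proteins Arf and Ink4a. The Arf promoter lies at chr4:89294654-89294869 (minus strand) and that of Ink4a at chr4:89282193-89282442 (minus strand), inside the first intron of the Arf transcript. The promoter of Cdkn2b, at chr4:89311040-89311282 (minus strand), follows. Cdkn1a, the p53 target that encodes p21, is shown by its upstream promoter at chr17:29090729-29090975 and its internal promoter at chr17:29093519-29093768 (both plus strand). Cdkn1b, the gene of p27, is shown at chr6:134920151-134920400 (plus strand).
Cdkn2a, Arf start: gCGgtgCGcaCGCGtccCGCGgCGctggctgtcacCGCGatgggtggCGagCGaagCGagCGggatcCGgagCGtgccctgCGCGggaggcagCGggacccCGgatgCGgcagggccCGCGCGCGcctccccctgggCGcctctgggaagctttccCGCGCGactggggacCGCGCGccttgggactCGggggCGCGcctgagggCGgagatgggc
Cdkn2a, Ink4a start: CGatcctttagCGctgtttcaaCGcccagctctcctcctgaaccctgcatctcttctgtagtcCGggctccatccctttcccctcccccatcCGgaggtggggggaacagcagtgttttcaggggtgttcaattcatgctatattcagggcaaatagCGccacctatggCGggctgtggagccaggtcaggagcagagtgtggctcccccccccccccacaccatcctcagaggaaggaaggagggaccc
Cdkn2b: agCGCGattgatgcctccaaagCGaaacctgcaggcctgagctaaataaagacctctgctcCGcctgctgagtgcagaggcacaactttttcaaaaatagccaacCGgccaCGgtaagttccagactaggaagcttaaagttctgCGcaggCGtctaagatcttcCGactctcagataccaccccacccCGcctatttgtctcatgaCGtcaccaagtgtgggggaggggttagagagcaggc
Cdkn1a, upstream start: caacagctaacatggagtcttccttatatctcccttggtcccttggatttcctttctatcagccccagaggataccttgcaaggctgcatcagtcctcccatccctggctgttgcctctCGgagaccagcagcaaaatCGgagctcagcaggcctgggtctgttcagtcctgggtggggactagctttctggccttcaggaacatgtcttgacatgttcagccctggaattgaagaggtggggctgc
Cdkn1a, internal start: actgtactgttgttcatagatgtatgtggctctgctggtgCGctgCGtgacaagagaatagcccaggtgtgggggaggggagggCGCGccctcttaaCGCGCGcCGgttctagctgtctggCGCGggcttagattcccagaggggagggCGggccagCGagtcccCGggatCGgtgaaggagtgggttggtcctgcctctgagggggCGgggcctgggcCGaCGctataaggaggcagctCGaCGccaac
Cdkn1b: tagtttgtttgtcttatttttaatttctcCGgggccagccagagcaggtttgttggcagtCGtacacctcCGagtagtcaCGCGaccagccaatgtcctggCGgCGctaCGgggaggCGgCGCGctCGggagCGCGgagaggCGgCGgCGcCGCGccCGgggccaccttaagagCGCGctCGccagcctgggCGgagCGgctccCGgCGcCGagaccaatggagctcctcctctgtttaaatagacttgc
The Arf stretch holds 35 CpGs in 216 bases, the Ink4a stretch 7 in 250 and the Cdkn2b stretch 11 in 243. Upstream Cdkn1a has 2 in 247 bases, the internal Cdkn1a promoter 19 in 250 and Cdkn1b 28 in 250.

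The first question was which of the inhibitor genes carried the mark. In total 5 of the 7 were called in at least 1 library, where 17.6% of the 21951 protein-coding genes and 10.3% of all annotated genes were called. In at least 3 libraries 4 of the 7 were called (13.3% of protein-coding genes), and in all 6 libraries 1 of the 7 (3.49%). Cdkn2b was called in 6 libraries, Cdkn2a and Cdkn2c in 5, Cdkn1a in 4, Cdkn1c in 1, and Cdkn1b and Cdkn2d in none. By library, 4 of the 7 were called in WT replicate 1, in WT replicate 2, in KO replicate 1 and in KO replicate 2, where 12.2%, 14.8%, 14.6% and 13.9% of protein-coding genes were called. In the 50 bp libraries 2 of the 7 were called in WT replicate 3 (4.29%) and 3 in KO replicate 3 (8.96%). All 3 WT libraries shared calls of Cdkn2b and Cdkn2c, 2 of the 7 (3.86% of protein-coding genes), and all 3 KO libraries shared calls of Cdkn2a and Cdkn2b, 2 of the 7 (8.26%). The genes were chosen as a family with results of these data known, and Cdkn2a and Cdkn2b lie next to each other, so these counts stand beside the background without a test.

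**Figure D1:**
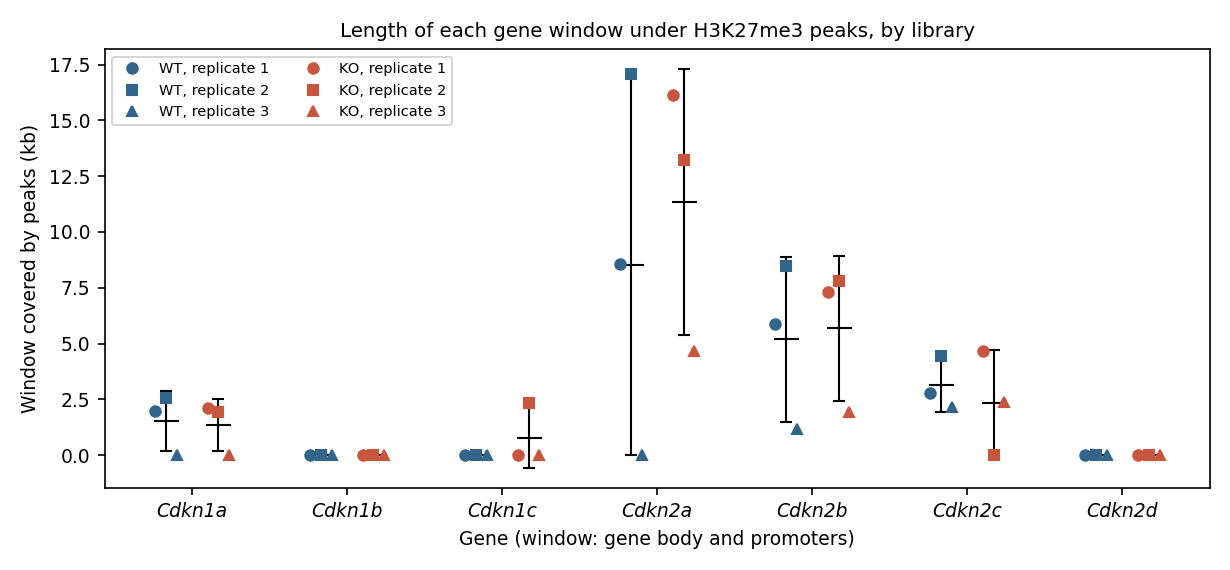
Length of each gene window covered by H3K27me3 peaks (kb, y axis) for the 7 genes (x axis), WT in blue and KO in red, with circles, squares and triangles for replicates 1, 2 and 3; bars are mean ± SD (n = 3). Cdkn2a reached 17058 bp in WT replicate 2, Cdkn1b and Cdkn2d stayed at 0 in every library, and the genotypes overlapped at every gene.

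Cdkn2b, which encodes an INK4 inhibitor induced by TGF-β, was the most constant member (ENSMUSG00000073802.5, chr4:89306299-89311039, minus strand). Its start site at position 89311039 lay inside a peak in all 6 libraries. Of its 9741 bp window, WT peaks covered 60.4%, 87.1% and 12.3%, and KO peaks 75%, 80% and 19.9%. Their summed total signal came to 37829, 52508 and 4973 for WT, compared with 46565, 34473 and 11636 for KO. The maximum signal reached 9, 11 and 10 fragments for WT, compared with 14, 9 and 18 for KO. Thus both 50 bp libraries were low in covered length and summed signal but not in maximum signal, and in these 2 libraries the mark was called only as a single peak of 1195 bp (WT) and 1936 bp (KO) over the start site.

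Cdkn2a, the gene of the tumor suppressors Ink4a and Arf, was marked in separate stretches (ENSMUSG00000044303.6, chr4:89274471-89294653, minus strand). Of its 25183 bp window, WT peaks covered 34%, 67.7% and 0%, and KO peaks 64%, 52.5% and 18.5%. Summed total signal came to 44300, 73311 and 0 for WT, compared with 78269, 76886 and 26471 for KO. The maximum signal reached 12, 14 and 0 fragments for WT, compared with 13, 18 and 11 for KO. Every library except WT replicate 3 had a call. The Arf start site lay inside a peak in 2 WT and 3 KO libraries. In contrast, the Ink4a start site lay inside a peak only in WT replicate 2 and KO replicate 1, 1 library of each genotype. Those 2 peaks were weak, with total signals of 6951 and 6865, at percentiles 2.85 and 2.59 of their libraries.

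Mean coverage was highest, in 4 of the 5 libraries with a call, in the 3′ part of Cdkn2a, which holds the exons that Ink4a and Arf share. All 5 had a peak there, in a merged region of 10486 bp (chr4:89270120-89280605). The peak on the gene averaged 4.44 and 5.75 fragments per base for WT replicates 1 and 2, compared with 5.14, 4.6 and 4.39 for KO. These are 1.21, 1.55, 1.3, 1.23 and 1.15 times the median peak of the same library, so each of the 5 peaks was above it. By total signal they ranked at percentiles 86.5, 79.8, 81.5, 91.2 and 73.4. In KO replicate 3 alone the peak over the Arf start was the denser one, at 1.34 times the median. KO replicate 2 reached a maximum of 18 fragments over the shared exons, percentile 99.8 of that library.

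Between the Arf start and the Cdkn2b promoter, peaks of the 6 libraries merged into one region of 28664 bp (chr4:89287647-89316310), which runs from the first intron of Arf across all of Cdkn2b. From the 3′ end of Cdkn2a to 5 kb upstream of Cdkn2b (41569 bp), WT peaks covered 46.7%, 73.6% and 2.87% and KO peaks 67.9%, 65.4% and 15.9%. In the 4 libraries with 75 bp reads the shares of the genotypes overlapped, and the 2 libraries with 50 bp reads covered less than any of them. WT replicate 3 kept 1 of these peaks, over the Cdkn2b start, and KO replicate 3 kept 3, at the Cdkn2b start, the Arf start and the shared exons. Read length, peak number and coverage moved together here, and their part in the result was not tested.

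**Figure D2:**
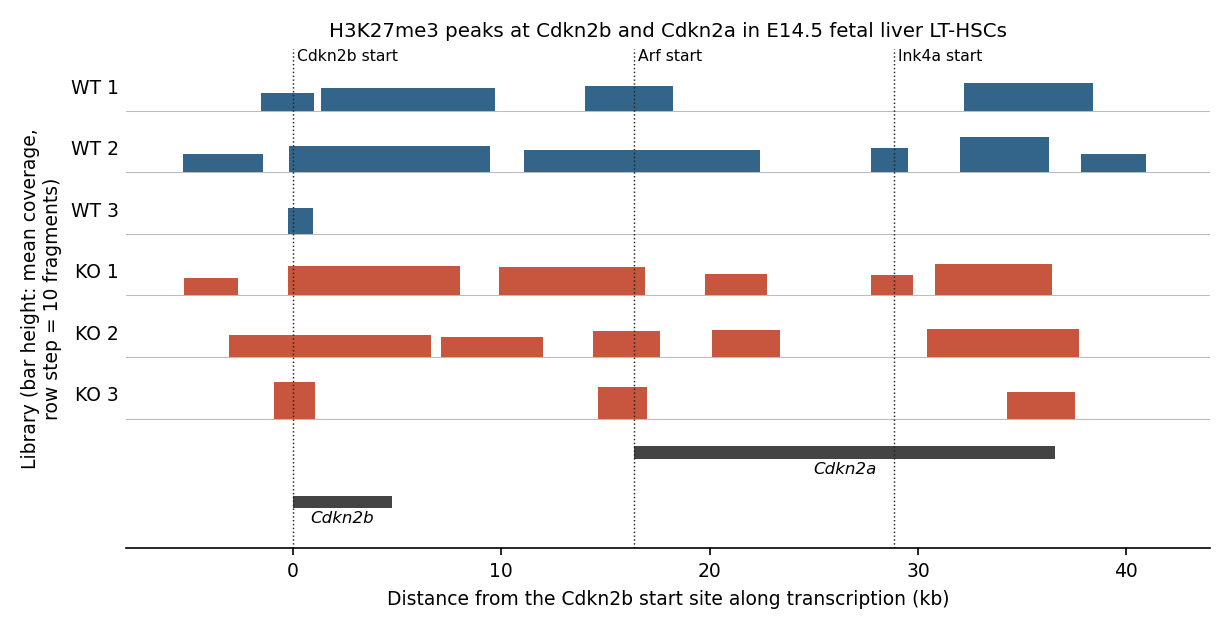
Peaks at Cdkn2b and Cdkn2a by library, against the distance from the Cdkn2b start site along transcription (kb); bar height is mean coverage (a step between rows is 10 fragments), dotted lines are start sites and grey bars are the genes. Every library has a peak at the Cdkn2b start, 5 have one at the Arf start and 2 at the Ink4a start.

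Cdkn2c, the gene of the INK4 inhibitor p18, carried the mark at its internal start site (ENSMUSG00000028551.14, chr4:109660876-109667189, minus strand). That site, at position 109665372, lay inside a peak in 3 WT and 2 KO libraries, and the outermost start at 109667189 in none. Of the 11314 bp window, WT peaks covered 2768, 4443 and 2165 bp, and KO peaks 4685, 0 and 2372 bp. Summed total signal came to 8786, 17718 and 4955 for WT, compared with 35761, 0 and 8480 for KO. The maximum signal reached 8, 16 and 5 fragments for WT, compared with 15, 0 and 7 for KO. KO replicate 2 had no call, and its nearest peak lay 2.77 kb downstream of the gene. That peak belongs to a merged region past the 3′ end (chr4:109653987-109661863), called in every library but WT replicate 3, of which only the peak of KO replicate 1 reached into the gene body. The call at Cdkn2c in KO replicate 1 therefore sums 2 peaks. In WT replicate 3, Cdkn2c and Cdkn2b were the only inhibitor genes called, with total signals of 4955 and 4973.

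Cdkn1a was marked only at its internal promoter (ENSMUSG00000023067.14, chr17:29090976-29100727, plus strand). The 4 libraries with 75 bp reads each had a single peak, 2000 and 2568 bp wide for WT, compared with 2099 and 1920 bp for KO. Total signal came to 7562 and 7062 for WT, compared with 7650 and 7880 for KO. The maximum signal reached 8 and 7 fragments for WT, compared with 7 and 9 for KO. Widths and maxima overlapped between the genotypes, and both KO totals, which are unscaled, were above both WT totals. Both 50 bp libraries had none, and their nearest peaks lay 727.3 kb upstream in WT and 135.6 kb downstream in KO. The internal start sites at 29093769 and 29093781 were inside each of the 4 peaks, and the other 3 start sites were inside none. GENCODE M21 places an unclassified single-exon transcript on the opposite strand at the same spot, so the peak cannot be given to one of the transcripts.

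Cdkn1c, an imprinted gene that encodes p57 and is known for keeping adult HSCs quiescent, had a single call (ENSMUSG00000037664.13, chr7:143458339-143461050, minus strand). In KO replicate 2 a peak of 4161 bp (chr7:143456511-143460671) covered 30.3% of the 7712 bp window, with a total signal of 11956 and a maximum of 7 fragments. It covered 3 start sites inside the gene and not the outer 2. No WT library and neither of the other KO libraries had a call. Next to the gene the mark was regular: in the 5 other libraries the nearest peak lay 9.94 to 12.6 kb downstream, and KO replicate 2 had a peak in the same flank. The flank peak nearest to the gene had a total signal of 12603, 24206 and 3714 for WT, compared with 24653, 20715 and 9870 for KO.

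**Figure D3:**
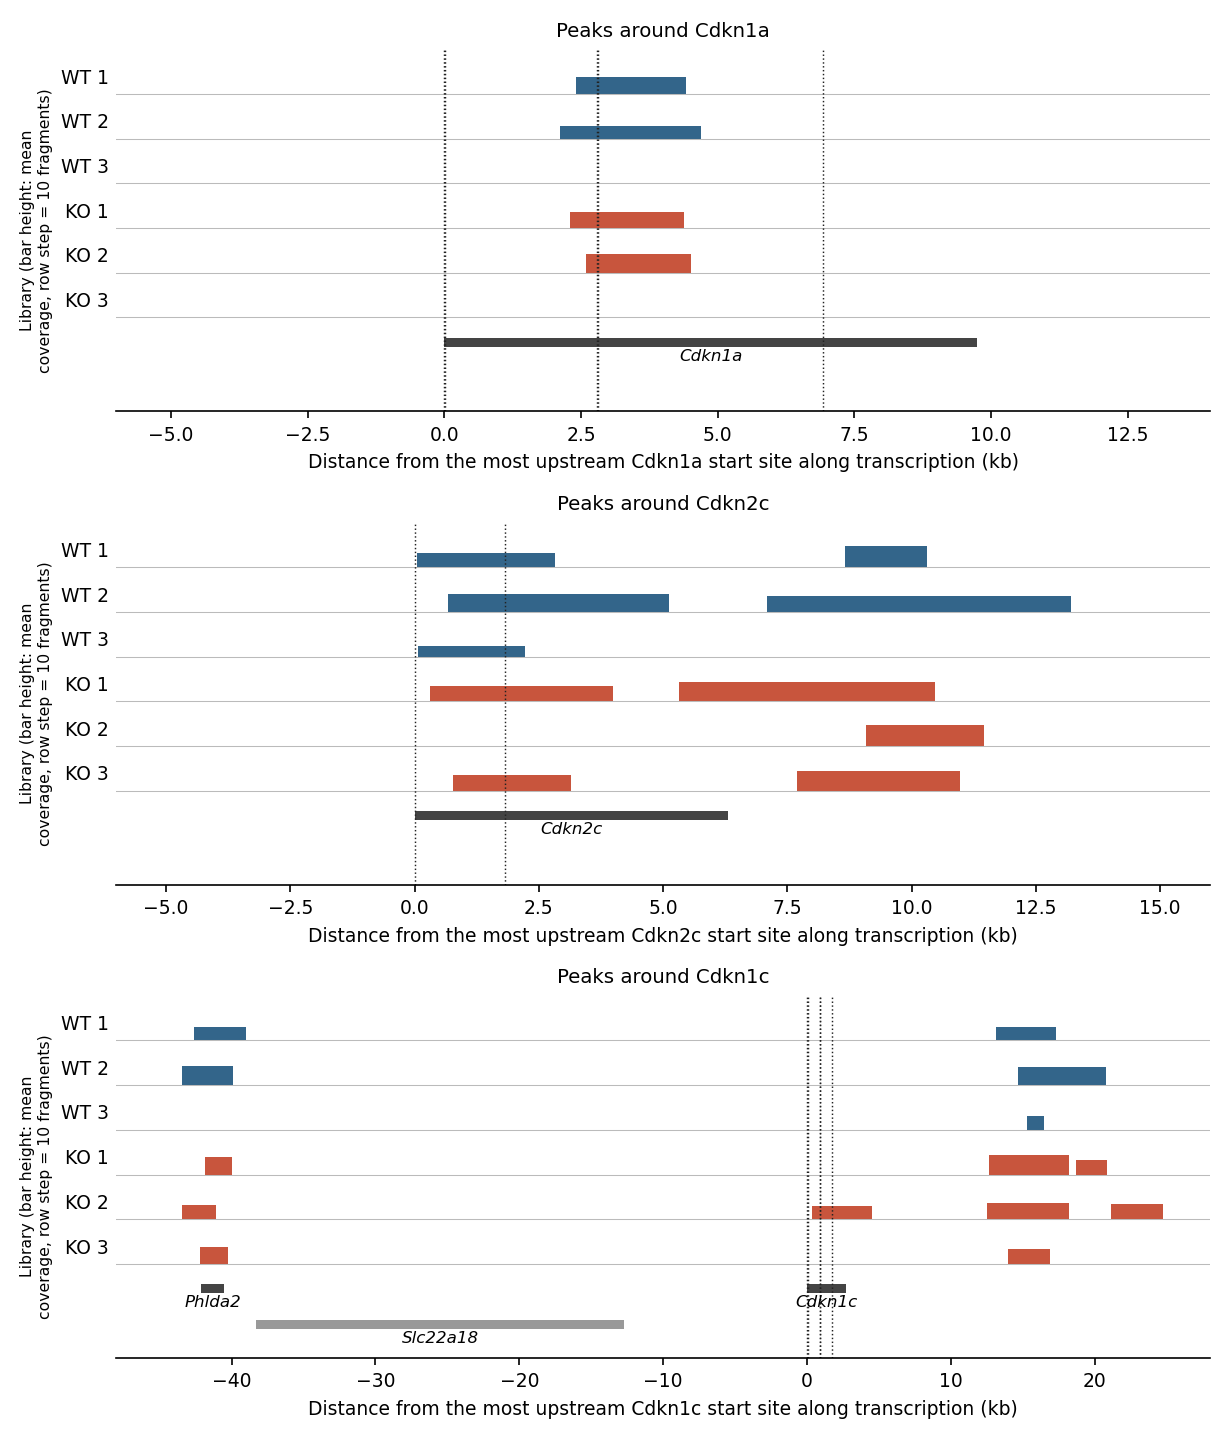
Peaks around Cdkn1a, Cdkn2c and Cdkn1c by library, against the distance from the outermost start site along transcription (kb); bar height is mean coverage (a step between rows is 10 fragments), dotted lines are start sites, dark bars are genes on the strand of the named gene and light bars genes on the other. The Cdkn1a peaks sit at the internal start in 4 libraries, the Cdkn2c peaks at the internal start in 5, and the Cdkn1c gene has 1 peak while its downstream flank has one in all 6.

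Cdkn1b and Cdkn2d had no peak in any library. Cdkn1b, whose product p27 restrains G1 kinases in quiescent cells, lies far from called peaks (ENSMUSG00000003031.14, chr6:134920401-134925513, plus strand). Its nearest peak was 113.5 kb away in WT replicate 1, 1244 to 1247 kb away in WT replicate 2 and the KO libraries, and 6619 kb away in WT replicate 3. Cdkn2d, the gene of the INK4 inhibitor p19, lies in a marked neighbourhood (ENSMUSG00000096472.2, chr9:21288410-21291407, minus strand). In all 6 libraries its nearest peak lay 35.5 to 38 kb downstream, near S1pr5.

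The genes also differed in where their peaks ranked within a library. By percentile of total signal the 4 Cdkn1a peaks stood at 4.7 to 13.2, close to the limit of calling, and the Cdkn1c peak at 45.9. At Cdkn2a the 15 peaks ranged from percentile 2.59 to 93.3 (median 66.6). At Cdkn2b the 9 peaks ranged from 7.72 to 93.1 (median 69.9), and at Cdkn2c the 6 peaks from 26 to 71.6 (median 57.1). The largest peak at Cdkn2a was 11324 bp wide, in WT replicate 2, and the largest at Cdkn2b 9708 bp, in KO replicate 2. Mean coverage relative to the library's median peak had medians of 1.15 at Cdkn2a, 0.99 at Cdkn2b, 0.975 at Cdkn1a and 0.914 at Cdkn2c. Of the 9 Cdkn2b peaks, the 3 below the median of total signal were each the second and weaker peak of a library. With peaks above the median total signal of their library alone, 3 of the 7 genes were called in any library, the Cip/Kip genes having no such peak. The share of all genes called by that rule was not counted, so this number stands without a background.

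**Figure D4:**
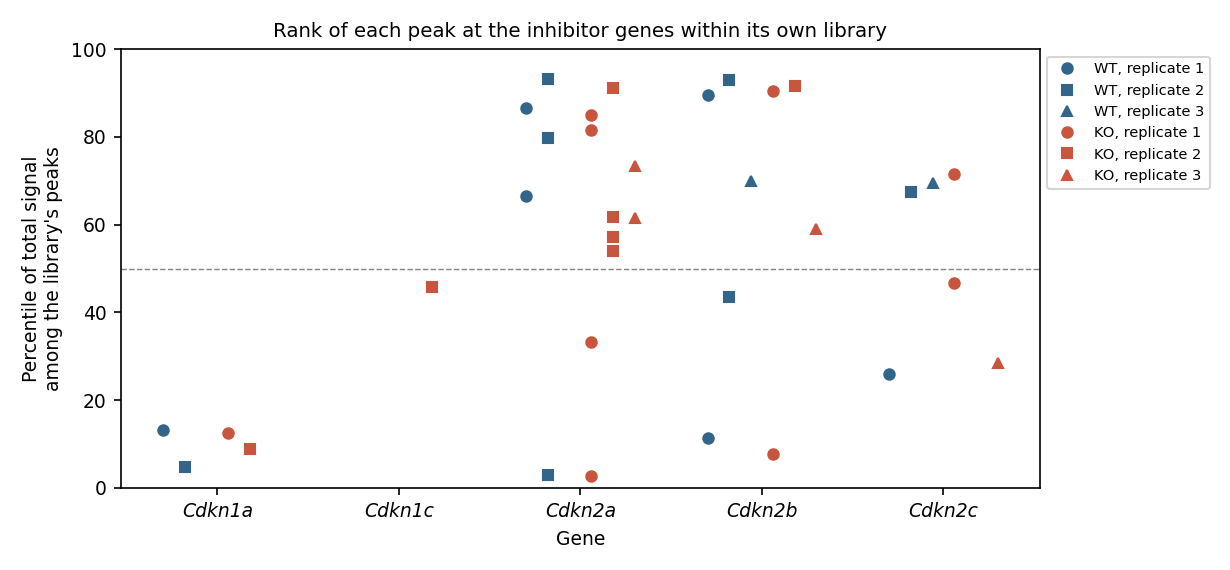
Percentile of the total signal of each peak among all peaks of its library (y axis), by gene (x axis) and library (WT blue, KO red; circles, squares and triangles are replicates 1, 2 and 3); the dashed line is the library's median peak. Cdkn1a peaks sit between 4.7 and 13.2, and Cdkn2a and Cdkn2b reach 93.3 and 93.1.

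Covered lengths then addressed whether the inhibitor genes carry more or less of the mark without IκBα. They were compared by an exact two-sided permutation test over the 20 assignments of the 6 libraries, which cannot give p below 0.1, and adjusted over the 5690 genes with a peak. Per genotype (mean ± SD, n = 3), Cdkn2a had 8541 ± 8529 bp for WT against 11337 ± 5955 bp for KO, a difference (KO minus WT) of 2796 bp (exact permutation p = 0.7). At Cdkn2b the means were 5187 ± 3695 bp and 5678 ± 3250 bp, a difference of 490.7 bp (exact permutation p = 0.8). For Cdkn2c they were 3125 ± 1180 bp and 2352 ± 2343 bp, a difference of -773.0 bp (exact permutation p = 0.7). Cdkn1a had 1523 ± 1349 bp and 1340 ± 1164 bp, a difference of -183.0 bp (exact permutation p = 0.8). Cdkn1c differed by 777.7 bp through KO replicate 2 alone (exact permutation p = 1). The adjusted p was 1 for each of the 5, and in none did the groups separate. Across all genes with a peak, 1.58% had every KO value above every WT value and 0.0527% the reverse, and 0% had an adjusted or an unadjusted p under 0.05. These were 90 and 3 genes, and without WT replicate 3 they were 91 and 522. As a share of the library's covered length they were 252 and 45. The median difference was 490.7 bp over the 5 inhibitor genes with a peak and 498.2 bp over the 5690 genes.

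Each of these differences was smaller than the spread between replicates, and several turned with 1 library. Without WT replicate 3 the difference was -1475 bp at Cdkn2a and -1505 bp at Cdkn2b, while that at Cdkn1a kept its sign (-944.3 bp). Cdkn2b also turned without KO replicate 1 (-321.0 bp) or KO replicate 2 (-568.5 bp), and as a share of the library's covered length (-0.0117 percentage points). Cdkn1a turned without WT replicate 1 (55.7 bp), WT replicate 2 (339.7 bp) or KO replicate 3 (486.8 bp). Without KO replicate 2 it was 403.2 bp at Cdkn2c. Within the 75 bp libraries, with 2 of each genotype, the differences were 1859 bp at Cdkn2a, 365.5 bp at Cdkn2b, -1263 bp at Cdkn2c and -274.5 bp at Cdkn1a. Within the 50 bp libraries, 1 of each genotype, they were 4670 bp at Cdkn2a, 741.0 bp at Cdkn2b, 207.0 bp at Cdkn2c and 0 bp at Cdkn1a. All peaks of the 50 bp libraries together spanned 1.9 Mb for WT, compared with 7.61 Mb for KO.

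Signal was compared after log2 total signal had been centred on the library's median over the 718 regions called in all 6 libraries, so that 0 is the level of a typical shared region. The region from the Arf start to the Cdkn2b promoter, the only one of these genes called in all 6, had 1.04, 1.46 and 0.09 for WT, compared with 1.28, 1.39 and 0.56 for KO. All 6 values were above 0. KO minus WT was 0.21 ± 0.42 on the log2 scale (SE, limma; 95% interval -0.71 to 1.14, adjusted p = 0.993). Without WT replicate 3 it was -0.16, and without KO replicate 2 it was -0.46. Of the 718 regions, 0% had an adjusted p under 0.05, and 1.11% an unadjusted one, 0.557% in each direction.

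Among the 3626 regions called in at least 3 libraries, an uncalled library was set to its own smallest called signal. Here 0% of regions had an adjusted p under 0.05 (limma), and 1.54% an unadjusted one, 0.11% with higher and 1.43% with lower signal in KO. The median difference over the regions tested was -0.16, against -0.04 with uncalled libraries left missing and 0.04 without WT replicate 3. How far the values set for uncalled libraries shape the split in direction was not tested. The 3′ part of Cdkn2a had 0.04 and -0.01 for WT replicates 1 and 2, compared with -0.34, 0.18 and -0.16 for KO, with WT replicate 3 set to -0.48. The difference was 0.04 ± 0.45 (SE, limma; 95% interval -0.87 to 0.96, adjusted p = 0.997). Without WT replicate 3 it was -0.11. At the Cdkn2c promoter the values were -1.60, -0.95 and 0.09 for WT, compared with -1.49 and -0.92 for KO replicates 1 and 3, with KO replicate 2 set to -2.02. KO minus WT was -0.66 ± 0.49 (SE, limma; 95% interval -1.65 to 0.33, adjusted p = 0.997), the largest in size of the 5 regions. WT replicate 3 was the highest of its values. The difference was -0.19 without WT replicate 3, -1.04 without WT replicate 1 and -0.38 without KO replicate 2, and also -0.38 when the uncalled library was left missing. The 3′ flank of Cdkn2c had -1.76 and -0.69 for WT replicates 1 and 2, compared with -0.69, -1.42 and -0.16 for KO, with WT replicate 3 set to -0.48. Its values overlapped between genotypes, with a difference of 0.22 ± 0.48 (SE, limma; 95% interval -0.76 to 1.20, adjusted p = 0.997). It was 0.47 with the uncalled library left missing, 0.48 without WT replicate 3, -0.16 without WT replicate 1, -0.06 without KO replicate 3 and -0.02 when scaled on the library's total signal. Cdkn1a had -1.82 and -2.28 for WT replicates 1 and 2, compared with -2.26 and -1.91 for KO replicates 1 and 2, the lowest called values of the 5 regions. The 2 libraries with 50 bp reads were set to -0.48 and -1.26 there, above the called values of the others, since a thin library has a high limit on this scale. Its difference was -0.28 ± 0.49 (SE, limma; 95% interval -1.28 to 0.71, adjusted p = 0.997). With the 2 uncalled libraries left missing it was -0.04, with the 75 bp libraries alone -0.02, and without WT replicate 3 it was 0.25. None of the 5 differences passed the test, and each interval still allows a change of at least 0.96 in one direction.

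**Figure D5:**
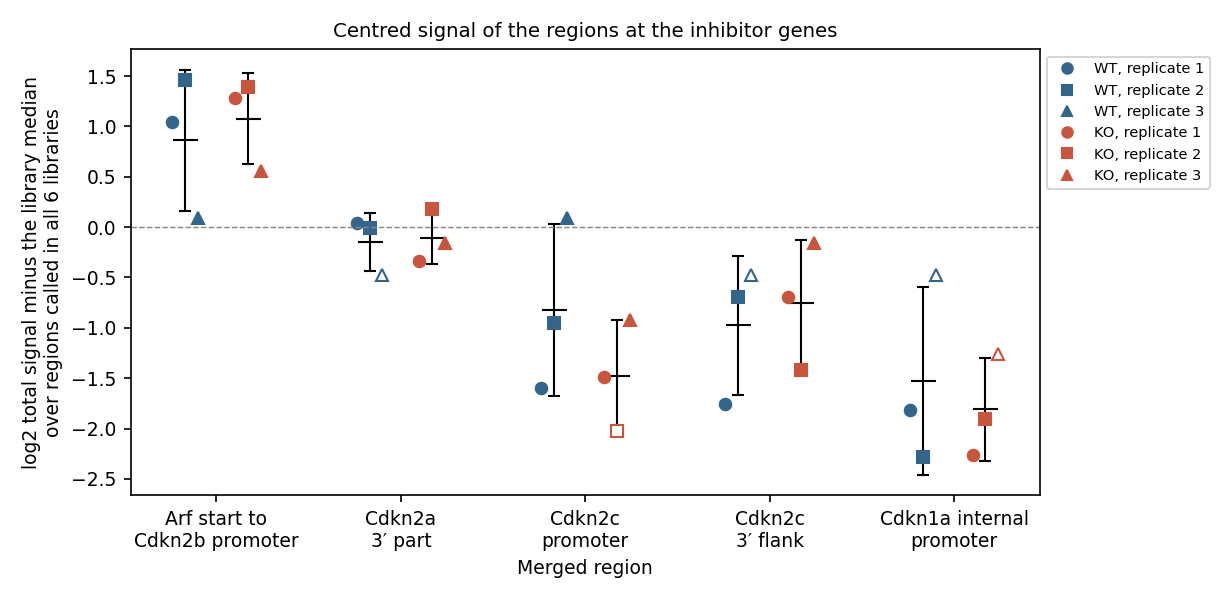
Centred log2 total signal (y axis) of the 5 merged regions at the inhibitor genes (x axis), WT in blue and KO in red, with circles, squares and triangles for replicates 1, 2 and 3; open symbols mark a library with no call, drawn at its smallest called signal, bars are mean ± SD (n = 3) and the dashed line is the median shared region. The region from the Arf start to the Cdkn2b promoter lies above 0 in all 6 libraries, from 0.09 to 1.46, and the genotypes overlap in every region.

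The sequences shown above were set beside the calls. CpGs, the dinucleotide CG, which reads the same on both strands, were counted in the 300 bases from 250 before to 50 after each RefSeq start, and 94.6% of the 32841 such promoters hold at least 1. The Arf promoter had 45, as many as only 1.93% of promoters have, and overlapped a peak in 5 libraries. Cdkn2b had 18 and overlapped one in all 6 libraries, and Ink4a had 12 and overlapped one in 2. The internal Cdkn1a promoter had 23 and a peak in 4 libraries, whereas the upstream one had 2 and no peak. Cdkn2c had 8 at its internal start, with a peak in 5 libraries. At a further RefSeq start of Cdkn2c at position 109666756, which is not the outermost GENCODE start, it had 33, with a peak in 3. Cdkn1b had 30 and Cdkn2d 22, and neither overlapped a peak. Among all promoters, 7.43% overlapped a peak in at least 3 libraries. The share was 1.53% with 0 to 4 CpGs and 6.08% with 5 to 9. It was 13.3% with 10 to 19, 12.1% with 20 to 29 and 14.3% with 30 or more. Promoters of the family with 22 or more CpGs thus included ones with a peak and ones with none.

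Protein-coding genes within 100 kb were examined to see how far the mark extended. No neighbour of Cdkn1a, Cdkn1b, Cdkn1c, Cdkn2c or Cdkn2d shared a peak with the inhibitor gene, nor did Cdkn2a and Cdkn2b share one. Near Cdkn1a, Cpne5 was called in 5 libraries. Near Cdkn1c, Kcnq1 and Phlda2, an imprinted gene, were each called in 2 WT and 3 KO libraries. Near Cdkn2d, Pde4a and Keap1 were each called in 5 libraries and S1pr5, a sphingosine 1-phosphate receptor, in all 6. Mtap, next to Cdkn2a, and Faf1, next to Cdkn2c, had no call, nor had any neighbour of Cdkn1b.

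Lists of genes that act with the inhibitors were counted in the same way, beside the 17.6% of protein-coding genes called in any library. Of 10 G1 cyclins and kinases 2 were called in any library, Ccna1, a germ cell cyclin, in 4 and Cdk4, the main target of INK4 proteins, in 3. None of 11 RB and E2F genes had a call. Of 5 genes of the p53 axis 1 was called, Trp73, a relative of p53, in 5 libraries. In the imprinted domain of Cdkn1c, 5 of 14 genes were called, Kcnq1, Phlda2 and Ascl2 in 5 libraries each and Th and Igf2 in 4 each. Of the 7 dormancy genes named by the study, 1 was called, Cyp26b1, which degrades retinoic acid, in 2 WT and 3 KO libraries.

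The genes whose signal over the 6 libraries was most like that of Cdkn2b were Cpeb1, Inhbb and Map6. Likeness was the Euclidean distance in log2 signal over the smallest called signal, taken over 6 libraries and 3859 protein-coding genes, and the distances were 0.51, 0.57 and 0.60. On this scale Cdkn2b had 2.52, 2.95 and 0.57 for WT, compared with 2.80, 2.24 and 0.79 for KO, and all 3 genes were, like it, called in every library and lowest in the 50 bp libraries. The 3 genes were chosen on these same values, so the shared pattern follows from the choice.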

How the data were processed

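H3K27me3 CUT&Tag peaks of 6 LT-HSC libraries were used. The authors trimmed reads (Trim Galore 0.6.6), aligned them to GRCm38 with Bowtie2 2.4.4, removed multi-mapped, poorly mapped and duplicate reads, and ran SEACR 1.3 (stringent, no IgG control) on each library, keeping the top 0.5% of blocks. Blacklisted regions were removed according to the file names, with a list that is not given in the sources used here. The deposited columns are total and maximum signal per peak, unscaled, and read totals per library were not used.

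Peaks were intersected (at least 1 bp) with windows of GENCODE M21 genes, an earlier annotation than that of the authors. Overlapping peaks were merged into regions across libraries. Covered length was tested by exact permutation, and log2 signal with limma (Benjamini-Hochberg, 0.05, over all genes or regions). Named genes were the 7 members, neighbours within 100 kb with a peak, the 3 genes most like the member called most often, and list genes called in at least 3 libraries. Lists covered cell cycle partners, the p53 axis, Polycomb genes, upstream regulators, dormancy genes, the Cdkn1c domain, Hox genes, active genes and cell type markers; 1 marker (Hbb-b1) is not annotated under that name. Markers called in fewer libraries and genes named for contrast were chosen after their values were seen, and 1 gene of the lists is not reported here. The members and lists were chosen with earlier results of these data known. The study calls the replicates independent in one place and elsewhere names fewer experiments, and fewer biological replicates per condition, than the 3 libraries of a genotype, so libraries may share an experiment. It used more embryos than libraries. Which embryos and experiment belong to which library is not given in the sources used here, so p-values measure only the spread between these libraries, which may be partly technical.

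Over the 718 shared regions, deviations from the group means of WT and KO libraries of the same number had correlations of 0.28, 0.31 and 0.48, all above 0.1, so the numbers were taken to pair libraries and a fit with that block was run. Libraries of different numbers also passed 0.1, with 0.27 for WT replicate 2 with KO replicate 1 and 0.12 for WT replicate 1 with KO replicate 2. Replicate 3 of both genotypes shared the 50 bp read length, so these values do not establish the pairing. Python 3.11.15, numpy 2.4.6, R 4.3.3 and limma 3.58.1 were used. Other windows, thresholds, scales, measures, libraries and the block were tried as alternatives.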

Additional observations from a re-analysis of the deposited data

How the results depend on the processing

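No region had an adjusted p under 0.05 (limma) under any alternative run. The permutation test cannot reach 0.05 with 3 libraries a group or fewer, so its 0 calls were fixed by the design. The number of inhibitor genes called in any library was 3 with peaks above the library median and 3 with the same number of top peaks in every library, against 5, and 4 to 5 when 1 library was left out. Genes called in every WT library numbered 1 under both of these peak choices, 4 with the 75 bp libraries alone and 2 to 4 with 1 library left out (4 without WT replicate 3). In every KO library, 2 to 3 were called with 1 library left out. For these alternatives the matching share of all genes was not counted, so their counts of inhibitor genes stand without a background. Genes with every KO value above every WT value numbered 90 as reported, 148 with promoters of 1 kb either side, 858 in the 75 bp libraries, 252 as a share of covered length, and 91 to 856 with 1 library left out (856 without KO replicate 3). The reverse held for 3 genes, for 5 with promoters only, 8 with 1 kb either side, 7 with equal numbers of peaks, 542 in the 75 bp libraries, 45 as a share, and 4 to 522 with 1 library left out (522 without WT replicate 3). Fewer libraries separate more easily.

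Differences in covered length ranged over the libraries left out from -944.3 to 486.8 bp at Cdkn1a, -1475 to 7054 bp at Cdkn2a, -1505 to 2362 bp at Cdkn2b and -1939 to 403.2 bp at Cdkn2c. Their direction turned at Cdkn1a without WT replicate 1 (55.7 bp), WT replicate 2 (339.7 bp) or KO replicate 3 (486.8 bp), and at Cdkn2b without KO replicate 1 (-321.0 bp) or KO replicate 2 (-568.5 bp). As a share of covered length, Cdkn2b turned to -0.0117 percentage points. Centred signal turned at the region from Arf to Cdkn2b with maximum signal (-0.02), mean signal per base (-0.05) and total scaling (-0.03), at Cdkn1a with maximum (0.17) and mean signal (0.08), at the 3′ part of Cdkn2a with total scaling (-0.20), the 75 bp libraries (-0.08) and uncalled libraries left missing (-0.12), and at the 3′ flank of Cdkn2c with total scaling (-0.02). With 1 library left out these 4 differences ranged from -0.46 to 0.49, -0.65 to 0.25, -0.11 to 0.38 and -0.16 to 0.56, and that of the Cdkn2c promoter from -1.04 to -0.19. The Cdkn2a part also turned without KO replicate 2 (-0.09), and the Cdkn2c flank without WT replicate 1 (-0.16) or KO replicate 3 (-0.06). The cause was not tested. Over the regions called in at least 3 libraries, the median difference was -0.16, 0.22 with maximum signal and -0.40 with total scaling. Regions with an unadjusted p under 0.05 (limma) numbered 8 of those called in all libraries and 56 of those called in at least 3, and 24 and 208 with the replicate block. Over all settings they ranged from 0 to 119 and from 5 to 220. The block changed no call, and the exact sign-flip test over 3 pairs cannot go below 0.25.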

Other observations

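Of 18 genes of the Polycomb complexes and the H3K27 demethylases, 4 were called in any library, where 17.6% of protein-coding genes were called. Cbx8, a subunit of PRC1, was called in all 6 libraries, Cbx2 in 3 and Bmi1, a known repressor of the Ink4a and Arf locus, in KO replicate 1 alone. Cbx8 had 6726, 5391 and 1909 bp of its window covered in WT and 9665, 5075 and 6701 bp in KO. Neither Ezh2 nor Eed nor Suz12, the core of PRC2, was called in any library. Bmi1 and the PRC2 genes were named after their values were seen.

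Of 15 regulators upstream of the inhibitors, 3 were called in any library, beside the same background, and only Hes1, a Notch target, in as many as 3 libraries. Its covered length was 0, 2675 and 0 bp in WT and 3010, 1173 and 0 bp in KO.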
